A study of Homo sapiens with 6 samples.

Results

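The genes of the PI3K, AKT and mTOR pathway were followed in TF-1, a human acute myeloid leukaemia line that needs a cytokine to grow, on 3 arrays of cells given human PRL-3 (numbered 4 to 6) and 3 arrays of cells given the control vector pEGFP (numbered 1 to 3). PRL-3 is the protein tyrosine phosphatase encoded by PTP4A3, and the series asks what it does in leukaemia. Both lines were grown with interleukin-3, so the pathway was measured in cells that received a growth signal in either group. The labels name neither clones nor pools, and none states that replicate arrays were separate cultures. The p-values therefore cover array-to-array spread alone, and this may be purely technical. The 47 members were taken by gene symbol from a list, and 44 of them had a probe set with that symbol alone, among 18377 genes tested. PIK3CA, PIK3R2 and LAMTOR1 were not analysed here.

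Class I PI3 kinases pair a catalytic with a regulatory subunit and make the lipid PIP3 at the plasma membrane when growth factor or cytokine receptors fire. PIP3 brings PDK1 and AKT together, and AKT then phosphorylates GSK3, the FOXO transcription factors and TSC2. TSC1 and TSC2 hold the small GTPase RHEB inactive, and RHEB and the Rag GTPases on the lysosome switch on mTORC1, which drives translation through S6 kinase and the 4E-BP proteins. These steps run mostly through phosphorylation, which an RNA array does not measure. All values below are RNA signals.

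PTP4A3 read 1794, 1954 and 1775 in the PRL-3 arrays, against 242, 261 and 249.98 in the control arrays (deposited intensity). The groups lay far apart, at a log2 difference of 2.87 ± 0.072 (moderated SE, adjusted p = 2.24e-06, limma). Median intensity was 89.8 to 92.9 over the 6 arrays. Of 13 measured marker genes of the erythroid and myeloid progenitor line, 12 lay above the median of all genes in control arrays, and 0 of 7 lymphocyte markers did. Also above it were 1 of 6 fibroblast markers (COL1A1), 1 of 6 epithelial markers (KRT18) and 2 of 4 endothelial markers (TEK and CLDN5). Of these TEK was highest, at the 89.7 percentile. KIT and CSF2RA of the 13 progenitor line markers rose with PRL-3 and TFRC fell. The summed intensity of the 13 was 10755 to 11409 in PRL-3 arrays and 12899 to 14034 in control arrays. TFRC, the brightest of the 13, weighs most in this sum (mean log2 12.2 in PRL-3 and 12.7 in control arrays). The sum therefore does not describe the 13 as a set, and its part in the results below was not tested. Lymphocyte markers summed to 389 to 417 in PRL-3 arrays and 383 to 422 in control arrays, fibroblast markers to 426 to 442 and 410 to 469, epithelial markers to 609 to 692 and 606 to 688, and endothelial markers to 776 to 809 and 806 to 834.

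DDIT4, an inhibitor of mTORC1 induced by stress, SGK1, a kinase related to AKT, PIK3R3, a regulatory subunit of PI3 kinase, and RRAGD, a Rag GTPase, rose. TSC2, the GTPase-activating subunit of the TSC complex, fell. These 5 of 44 members, 11.4%, stood beside 7.69% of all genes tested, and the 4 that rose beside a background of 4.58% and the 1 that fell beside 3.11%, and the share is near that of other genes. An unadjusted p under 0.05 was found for 8 members, and for 20.2% of all genes. The median log2 difference was 0.0116 over the 44 members and -0.0154 over all genes. The arrays of the groups did not overlap in 10 members, 8 higher and 2 lower, which is 22.7% against 24.3% of all genes. In bulk RNA a change per cell and a change in the mix of cells cannot be told apart.

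The sequences before the start sites of DDIT4 and TSC2 are shown because these genes bear on the same GTPase step and moved in opposite directions. Windows were taken from RefSeq (GRCh38.p14), which held one for 38 of the 44 members (64 windows in all, since a gene can have several start sites). The 250 bases before the start of DDIT4 lie at chr10:72273674-72273923 on the plus strand, and those before the first of the TSC2 starts at chr16:2047735-2047984 on the plus strand. Capitals mark matches to ACGTG (the core of a hypoxia response element), CACGTG (an E-box), TGATGNAA (a C/EBP-ATF composite element) or GTAAACA (a FOXO element) on either strand.
DDIT4: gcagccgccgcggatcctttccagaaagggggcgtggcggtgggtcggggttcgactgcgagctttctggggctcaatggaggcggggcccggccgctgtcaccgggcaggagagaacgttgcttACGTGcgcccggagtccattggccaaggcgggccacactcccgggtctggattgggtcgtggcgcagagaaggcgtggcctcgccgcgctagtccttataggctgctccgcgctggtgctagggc
TSC2: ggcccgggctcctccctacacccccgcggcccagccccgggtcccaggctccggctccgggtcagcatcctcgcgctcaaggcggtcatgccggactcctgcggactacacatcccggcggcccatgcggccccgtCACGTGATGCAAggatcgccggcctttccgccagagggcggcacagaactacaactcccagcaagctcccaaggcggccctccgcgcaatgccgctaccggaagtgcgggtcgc
DDIT4 held ACGTG, and the TSC2 stretch shown held a single run in which CACGTG, which contains ACGTG on both strands, overlaps TGATGNAA. The 250 bases before the other TSC2 start, not shown, held none of these motifs. Of the other called members, PIK3R3 and SGK1, also not shown, held ACGTG before some of their starts and no motif before the rest. RRAGD had no window. Over all 35116 windows of 300 bases, 250 before and 50 after a start, ACGTG was in 21.4%, CACGTG in 7.26%, TGATGNAA in 3.62% and GTAAACA in 3.42%. Over the 64 windows of members the shares were 26.6%, 7.81%, 3.12% and 1.56%. A match describes these letters and shows no binding.

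**Figure D1:**
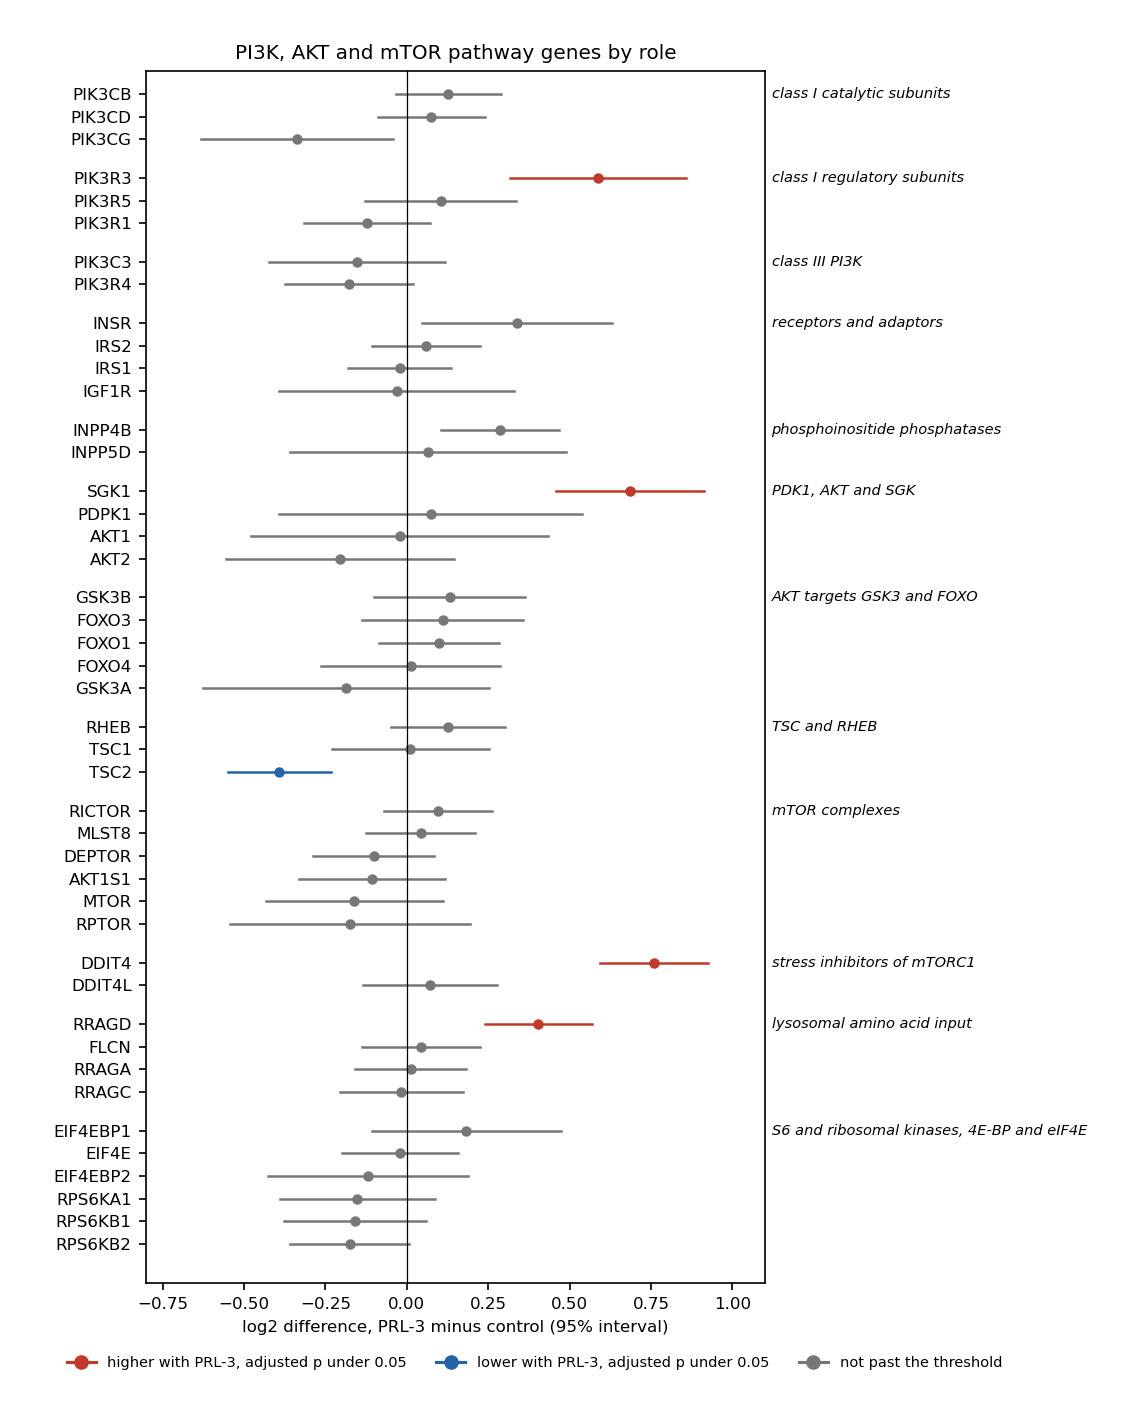
Log2 difference of each of the 44 measured members, PRL-3 minus control (x axis), with limma's 95% interval, grouped by role. The 4 red members lie between 0.40 and 0.76, TSC2 in blue at -0.39, and 39 grey members did not pass adjusted p 0.05.

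Among stress inhibitors of mTORC1, DDIT4 (also called REDD1, which frees the TSC complex to act) showed the largest difference of any member. DDIT4 read 222, 214 and 204 in PRL-3 arrays, against 119, 132 and 127 in control arrays. Its lowest PRL-3 array stood well above its highest control array. The log2 difference was 0.76 ± 0.072 (SE, 1.69-fold, adjusted p = 0.000991, limma), and the exact two-sided permutation test gave p = 0.1, the smallest that 3 arrays against 3 can give. DDIT4L, its relative REDD2, read 43.7, 46.7 and 41.8 in PRL-3 arrays, against 40.8, 38.6 and 46.6 in control arrays. These overlapped, at a log2 difference of 0.07 (95% interval -0.13 to 0.28, adjusted p = 0.75, limma).

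In the kinase group, SGK1, which shares PDK1 and mTORC2 as upstream kinases with AKT, read 90.4, 107 and 91.8 in PRL-3 arrays, against 63.5, 62.8 and 53.4 in control arrays. SGK1 rose by 0.69 ± 0.099 on the log2 scale (1.61-fold, adjusted p = 0.00572, limma, exact permutation p = 0.1), with no overlap. Its control level was low, at the 24.1 percentile of all genes. AKT1 and AKT2, the central kinases, and PDPK1, which encodes PDK1, did not pass. AKT1 read 235, 334 and 235 in PRL-3 arrays, against 325, 294 and 202 in control arrays. The groups overlapped, at a log2 difference of -0.02 with a wide 95% interval, -0.48 to 0.43. AKT2 read 257, 327 and 286 in PRL-3 arrays, against 411, 330.1 and 272 in control arrays, a log2 difference of -0.21 ± 0.152 (adjusted p = 0.541, limma).

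Of the class I regulatory subunits, PIK3R3, which encodes p55 gamma, read 568, 426 and 570.4 in PRL-3 arrays, against 357, 328 and 348 in control arrays. PRL-3 array 5 was the lowest of its group and still above all control arrays. PIK3R3 rose by 0.59 ± 0.117 on the log2 scale (adjusted p = 0.0222, limma, exact permutation p = 0.1). PIK3R1, which encodes p85 alpha, differed by -0.12 (adjusted p = 0.509) and PIK3R5, the p101 partner of the gamma catalytic subunit, by 0.10 (adjusted p = 0.662, limma). Of the 3 measured class I catalytic subunits 0 passed in limma. At an unadjusted p under 0.05 limma had 1 of them and the unequal-variance test 0. That 1 was PIK3CG, the G-protein-coupled catalytic subunit, at 205, 235 and 190.2 in PRL-3 arrays, against 296, 284 and 220.4 in control arrays. PRL-3 array 5 and control array 3 overlapped, and the log2 difference was -0.34 ± 0.128 (adjusted p = 0.18, limma). Without control array 3, the lowest of its group, PIK3CG passed (-0.47, adjusted p = 0.0316, limma), as it did with array weights (-0.47, adjusted p = 0.00266). The array weights, named again below, called 2122 of all 18377 genes higher and 2303 lower, against 842 and 571 in the main fit. PIK3CB and PIK3CD, which encode p110 beta and p110 delta, differed by 0.13 and 0.08 (adjusted p = 0.379 and 0.654, limma), and PIK3CB passed with array weights (0.17, adjusted p = 0.0471).

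The class III kinase PIK3C3 (VPS34), which makes PI3P for autophagy and endosomes, and its regulatory subunit PIK3R4 differed by -0.15 and -0.18 on the log2 scale. PIK3R4 read 249, 259 and 255 in PRL-3 arrays, against 321, 264 and 280.5 in control arrays. The groups did not overlap, yet PIK3R4 did not pass (adjusted p = 0.301, limma), with control array 1 well above the rest.

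Among receptors and adaptors, INSR, the insulin receptor gene, read 161, 176 and 166 in PRL-3 arrays, against 153, 142 and 108 in control arrays. The groups did not overlap and control array 3 was lowest, and the log2 difference of 0.34 ± 0.126 did not pass (adjusted p = 0.174, limma). IGF1R (-0.03), IRS1 (-0.02) and IRS2 (0.06), the IGF1 receptor and the insulin receptor substrates, lay near 0 with adjusted p from 0.743 to 0.954 in limma. The phosphatase gene INPP4B, whose product removes a phosphate from PI(3,4)P2, read 31.1, 35.6 and 30.8 in PRL-3 arrays, against 26.5, 26.0 and 27.4 in control arrays. All PRL-3 arrays were above all control arrays, but its control level was at the 2.61 percentile of all genes, close to the dim end of the array. INPP4B differed by 0.29 ± 0.079 on the log2 scale (adjusted p = 0.0701, limma), and passed with an intensity trend and robust variances (adjusted p = 0.027) and with array weights (0.27, adjusted p = 0.00779). INPP5D, the gene of SHIP1, which turns PIP3 into PI(3,4)P2 in blood cells, differed by 0.06 with a wide 95% interval from -0.36 to 0.49.

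**Figure D2:**
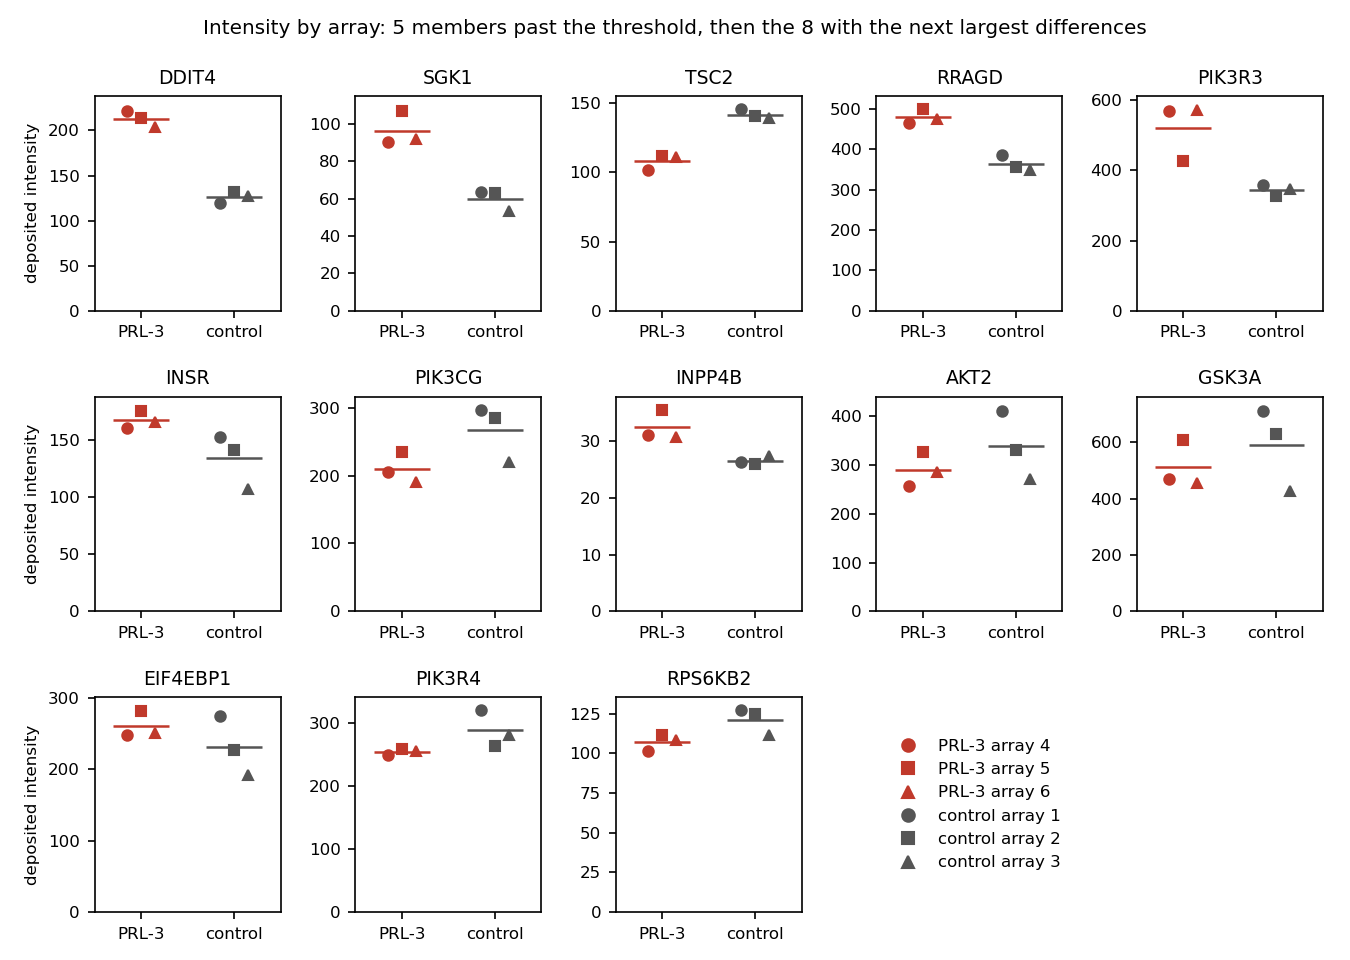
Deposited intensity (y axis, from 0) in each PRL-3 array (red, left) and control array (grey, right) for the 5 members past the threshold and the 8 with the next largest differences; horizontal lines are group means of 3 arrays. DDIT4, SGK1, RRAGD and PIK3R3 are higher and TSC2 lower in every PRL-3 array than in any control array, while AKT2, GSK3A, PIK3CG, EIF4EBP1 and RPS6KB2 overlap.

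In the TSC and RHEB step, TSC2 read 102, 112 and 111 in PRL-3 arrays, against 146, 140.5 and 139 in control arrays. It had the smallest spread within groups of all members (SD 0.0566 on the log2 scale), and fell by 0.39 ± 0.069 on the log2 scale with PRL-3 (1.31-fold lower, adjusted p = 0.0128, limma, exact permutation p = 0.1). TSC1, its binding partner, differed by 0.01 with a 95% interval from -0.23 to 0.25. RHEB was represented by a probe set whose number lies among those of chromosome 10 genes, while RHEB is on chromosome 7, and which transcript it reads was not tested. It read 456, 468 and 484 in PRL-3 arrays, against 439.6, 396 and 455 in control arrays, and differed by 0.13 (adjusted p = 0.425, limma; RHEB passed with array weights, 0.21, adjusted p = 0.0359). The other RHEB probe set, numbered among chromosome 7 genes, read 397, 350.2 and 461 in PRL-3 arrays, against 335, 323 and 317 in control arrays. These values did not overlap either, at 0.30 ± 0.103 on the log2 scale (adjusted p = 0.183 over all probe sets, limma).

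Of the lysosomal inputs, RRAGD read 465, 499 and 476 in PRL-3 arrays, against 385, 355 and 348 in control arrays. RRAGD rose by 0.40 ± 0.071 on the log2 scale (1.32-fold, adjusted p = 0.0133, limma, exact permutation p = 0.1). RRAGC, the Rag GTPase most like it, differed by -0.02 (95% interval -0.20 to 0.17). RRAGA, which pairs with RRAGC or RRAGD, differed by 0.01, and FLCN, the folliculin gene whose product acts on RRAGC and RRAGD, by 0.04, both short of the threshold (adjusted p = 0.963 and 0.84, limma).

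Set beside a relative on the same array, the log2 ratio differed by 0.69 for DDIT4 to DDIT4L, 0.42 for RRAGD to RRAGC, 0.71 for PIK3R3 to PIK3R1, 0.71 for SGK1 to AKT1 and -0.40 for TSC2 to TSC1 (PRL-3 minus control). These 5 pairs join the members past the threshold to relatives picked after their values were seen, so the differences are a description with no test.

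The subunits of the mTOR complexes and the translation arm did not pass. Of the 6 mTOR complex genes 0 passed in limma, and neither limma nor the unequal-variance test gave any of them (0 of 6) an unadjusted p under 0.05. MTOR (-0.16) and RPTOR (-0.17), the kinase and the mTORC1 scaffold, were the lowest, then AKT1S1 (PRAS40, -0.11) and DEPTOR (-0.10), both mTOR inhibitors. MLST8 (0.04), shared by both complexes, and RICTOR (0.10), the mTORC2 scaffold, were above 0. RICTOR's PRL-3 arrays (620.3, 575 and 580.4) all lay above its control arrays (521, 573 and 568), by a small margin at array 5. With array weights MTOR (-0.28, adjusted p = 0.022) and AKT1S1 (-0.23, adjusted p = 0.0319) passed in limma. That setting called 2303 of all 18377 genes lower, against 571 in the main fit.

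Of the 6 kinases and translation factors 0 passed in limma, again with 0 at an unadjusted p under 0.05 in either test. EIF4EBP1, a 4E-BP gene, read 248, 282 and 251 in PRL-3 arrays, against 274, 227 and 192 in control arrays, and the groups overlapped (0.18 ± 0.127, adjusted p = 0.51, limma). RPS6KB2, the second S6 kinase gene, read 101, 112 and 109 in PRL-3 arrays, against 128, 125 and 111 in control arrays, where only control array 3 reached the PRL-3 range (-0.18 ± 0.08, adjusted p = 0.268, limma). RPS6KB1 (-0.16), RPS6KA1 (-0.15), the RSK1 gene of the ERK pathway, EIF4EBP2 (-0.12) and EIF4E (-0.02), the cap-binding protein gene, had adjusted p from 0.426 to 0.929 in limma. With array weights 3 of the 6 passed as lower, RPS6KB2 (-0.24, adjusted p = 0.0159), RPS6KB1 (-0.28, adjusted p = 0.0244) and RPS6KA1 (-0.22, adjusted p = 0.0469, limma). These calls stood beside 2303 of all 18377 genes called lower with array weights, against 571 in the main fit.

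Among the GSK3 and FOXO genes, whose products AKT phosphorylates, 0 of 5 passed in limma, with 0 at an unadjusted p under 0.05 in either test. GSK3A read 470.1, 609 and 454 in PRL-3 arrays, against 711, 629 and 428 in control arrays. All PRL-3 values lay within the control range (-0.19 ± 0.191, adjusted p = 0.687, limma). The GSK3A difference was -0.03 without control array 1 and -0.40 without control array 3, neither past the threshold, and with array weights it passed at -0.38 (adjusted p = 0.0324, limma). GSK3B (0.13), FOXO1 (0.10), FOXO3 (0.11) and FOXO4 (0.01) had adjusted p from 0.558 to 0.976 in limma. The FOXO3 value comes from a probe set of that symbol alone; another probe set, shared with its copy FOXO3B, differed by -0.09 (adjusted p = 0.834 over all probe sets).

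Many members varied together between arrays of the same group. In 25 of 44 members, 56.8%, control array 3 was the lowest control array and PRL-3 array 5 the highest PRL-3 array, against 24.3% of all genes; these arrays were picked because they lay at opposite ends of the second principal component, which held 31.4% of the variance. The pattern is strong in AKT1, GSK3A and INPP5D, with pooled within-group SD of 0.33, 0.316 and 0.304 on the log2 scale, against a median of 0.13 for the members and 0.106 for all genes. INPP5D read 747, 1059 and 654 in PRL-3 arrays, against 912, 753 and 658 in control arrays. The probe set that stands for PDPK1 ran the other way in both groups, at 439, 364 and 556 in PRL-3 arrays, against 349.8, 386 and 566 in control arrays. Another probe set of PDPK1 alone, with nearly equal values in every array differed by 0.07 as well. The 2 other probe sets of PDPK1 alone did not share this order. One read 204, 341 and 237 in PRL-3 arrays, against 332, 308 and 223 in control arrays, the same order as AKT1, and the other read 298, 366 and 332 in PRL-3 arrays, against 375, 259 and 280.2 in control arrays. They differed by -0.16 and 0.14, short of the threshold, so the opposite order belongs to the 2 nearly equal probe sets and not to the gene as a whole. For these genes the intervals are wide.

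**Figure D3:**
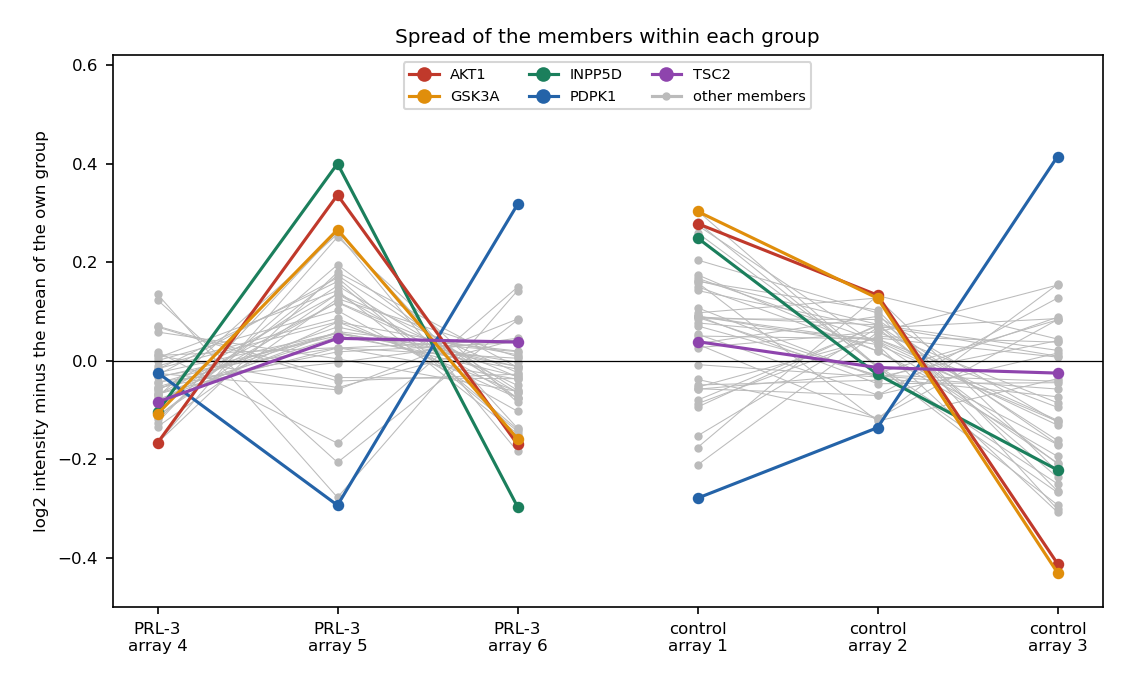
Log2 intensity of each of the 44 members minus the mean of its own group (y axis) in the 6 arrays (x axis); lines join the arrays of a gene within a group. AKT1, GSK3A and INPP5D are highest among PRL-3 arrays at array 5 and lowest among control arrays at array 3, the probe set standing for PDPK1 runs opposite, and TSC2 stays within 0.1 of its group means.

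The calls rested on the arrays to different degrees. DDIT4 and SGK1 passed whichever single array was left out (highest adjusted p = 0.00875 and 0.0284, limma). TSC2 did not pass without control array 2 (adjusted p = 0.0632) or PRL-3 array 4 (0.067). RRAGD and PIK3R3 did not pass without control array 2 (0.0761 and 0.108), PRL-3 array 4 (0.0502 and 0.0972) or PRL-3 array 6 (0.0571 and 0.092, limma). Their differences in these fits were -0.40 and -0.35 for TSC2, 0.39, 0.43 and 0.41 for RRAGD, and 0.55, 0.52 and 0.52 for PIK3R3. In that order of arrays, the fits called 388, 405 and 431 of all genes higher and 178, 199 and 228 lower. With all arrays 842 were higher and 571 lower. Each such fit had fewer arrays, and the cause of the lost calls was not tested. In the unequal-variance test, which gives each gene its own spread, 0 of 44 members passed, and 6 had an unadjusted p under 0.05 there against 8 in limma.

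Genes of the same pathway that are not members were read from a list of 123. It was chosen with earlier results of these data known, so its shares describe the list and test nothing. Of the 123 genes, 110 had a probe set. Of these 9 rose, 3 fell and 98 did not pass, 10.9% against 7.69% of all genes, and their median log2 difference was 0.0268. The largest was EIF4E3, a relative of the cap-binding protein, at 211, 249 and 281 in PRL-3 arrays, against 125, 122 and 109.8 in control arrays (1.04 ± 0.112 on the log2 scale, adjusted p = 0.00163, limma). In the same group of translation outputs PDCD4, an inhibitor of the helicase eIF4A that S6 kinase marks for degradation, rose by 0.81 ± 0.103 (adjusted p = 0.00347), and EIF4A2, one of these helicases, by 0.29 (adjusted p = 0.039, limma). Averaged over its probe sets EIF4A2 did not pass (0.28, adjusted p = 0.0823, limma). PDCD4 read 4327, 3923 and 4522 in PRL-3 arrays, against 2259, 2265 and 2794 in control arrays, with no overlap.

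TRIB1, a pseudokinase whose family member TRIB3 binds AKT, rose by 0.72 ± 0.077, the only one called of 11 in its group. TRIB3 itself differed by 0.13 (adjusted p = 0.442, limma). TRIB2, of the same family, lay the other way at -0.58 and did not pass (adjusted p = 0.079, limma). Its groups did not overlap, by a narrow margin at PRL-3 array 5. In the AMPK and LKB1 group, which restrains mTORC1 when energy is low, PRKAB2, a regulatory subunit of AMPK, rose by 0.62 ± 0.075 and STRADB, a partner of LKB1, fell by 0.67 ± 0.071 (adjusted p = 0.00272 and 0.00158, limma). STRADB read 571, 526 and 553 in PRL-3 arrays, against 840.3, 865 and 924 in control arrays. Of 17 genes of amino acid sensing SAMTOR, the sensor of S-adenosylmethionine, rose (0.37), and of 7 partners of mTORC2 and of mTOR assembly TTI1 fell (-0.38). GAB1, an adaptor of PI3 kinase, fell (-0.28), the only call among 11 genes of its group; averaged over its probe sets GAB1 was at -0.12 (adjusted p = 0.544, limma).

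Of 10 transcripts linked to FOXO factors, GADD45A (0.46) and BCL2L11, the BIM gene (0.33), rose and 0 fell, and of 9 autophagy and lysosome genes MITF (0.47) rose. In the FOXO list the groups did not overlap in 8 genes, 7 higher and 1 lower with PRL-3. The same was true of 41.8% of all 110 other pathway genes (27 higher and 19 lower) and of 71.4% of the mTORC2 and assembly group (1 higher and 4 lower), against 24.3% of all genes. An unadjusted p under 0.05 was found for 40 of the 110 in limma, against 20.2% of all genes. Because these lists were chosen with earlier results of these data known, such shares are a description with no test. CCNG2 (0.40), SOD2 (0.25), CDKN1B (0.24), BCL6 (0.22) and KLF2 (0.17) were among the 7 and did not pass, and TXNIP (-0.15) was the 1. None passed among 7 Ragulator, Rag and folliculin partners or 13 phosphoinositide enzymes in limma, where 4 and 4 had an unadjusted p under 0.05, against 1 and 4 in the unequal-variance test. Calls of GAB1 and BCL2L11 were lost whichever array was left out (adjusted p 0.074 to 0.152 for GAB1 and 0.0574 to 0.185 for BCL2L11), and those of SAMTOR, TTI1 and EIF4A2 without control 1 (adjusted p = 0.0671, 0.0801 and 0.113), control 2 (0.104, 0.104 and 0.149), PRL-3 4 (0.11, 0.105 and 0.159) or PRL-3 6 (0.108, 0.107 and 0.141). MITF was lost without control 2 (0.0724) or PRL-3 4 (0.0752) and GADD45A without control 2 (0.05002, limma). EIF4E3, PDCD4, TRIB1, PRKAB2 and STRADB passed in each of these fits.

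**Figure D4:**
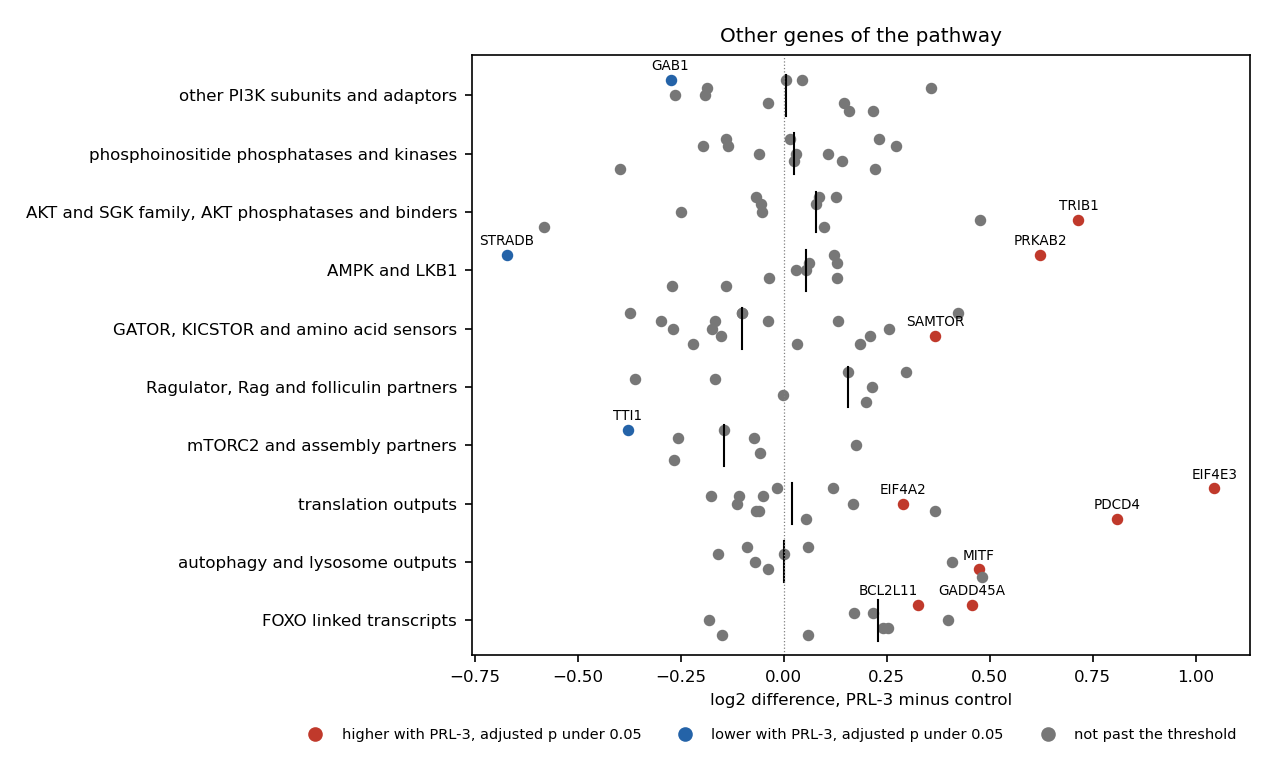
Log2 difference, PRL-3 minus control (x axis), of 110 further pathway genes by group (rows); the black bar is the group median. The 9 genes that rose (red) and 3 that fell (blue) at adjusted p 0.05 are named, and most others lie within 0.4 of 0.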

How the data were processed

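Total RNA was labelled and hybridised to a whole-transcript human array, per the labels. For each array the authors deposited an intensity value for every one of 28869 probe sets; the probe summary, background correction and normalization behind these intensity values are not given in the sources used here. Medians were close, so arrays were taken as normalized, and log2 was used with no offset. A shift shared by most genes would be removed by such a step. Probe sets with exactly 1 symbol in the platform annotation were kept (19310), and the brightest over all 6 arrays stood for a gene (18377 genes). No gene was left out as dim, and the number of arrays limits the precision.

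Differences, PRL-3 minus control, came from lmFit and eBayes (limma 3.58.1, R 4.3.3; two-sided, Benjamini-Hochberg over all genes, threshold 0.05), with code tested on simulated data. Errors after a difference are moderated standard errors. Values in every array are given for PTP4A3, for members past the threshold and for the 8 next largest differences, and of the other pathway genes up to 4 called per group were to be named; others shown by array were picked after their values were seen. Members and lists were chosen with earlier results of these data known. Labels give no batch. Alternatives covered normalization, variance model, array weights, dim genes, probe sets, the test and left-out arrays.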

Additional observations from a re-analysis of the deposited data

Results flagged for a closer look

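Members are also read by 10 probe sets that the comparison did not use, and 1 of these passed adjusted p 0.05 when all probe sets were fitted together. It carries 4 gene symbols, among them those of the ribosomal protein gene RPS26 and of PDPK1, and read 302, 304 and 282 in PRL-3 arrays, against 245, 239 and 219.6 in control arrays. Its log2 difference was 0.33 ± 0.07 (SE, adjusted p = 0.0436, limma), and no gene is named from it. The other 3 probe sets with these symbols differed by 0.28, 0.25 and 0.25 and did not pass (adjusted p from 0.0961 to 0.165, limma). With 3 arrays a group, no test for a single outlying array was made.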

How the results depend on the processing

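No paired analysis was possible because the groups share no replicate number. Over 16 alternatives, or 15 for SGK1, none of the 5 called members changed sign, and 12 of the 44 members did so, all of them short of the threshold in limma on all arrays. Array weights called 7 members higher and 8 lower, 24 and 23 other pathway genes, and 2122 and 2303 genes in all, against 842 and 571 in the main fit. The unequal-variance test called 0 members, 0 other pathway genes in either direction, and 7 and 4 genes in all (2663 had an unadjusted p under 0.05); it shares no spread across genes. Quantile normalization called 6 other pathway genes lower, against 3. Leaving out 1 array gave 2 to 4 members higher and 0 to 2 lower, 4 to 12 and 1 to 6 other pathway genes, and 388 to 792 and 178 to 747 genes in all, with fewer arrays. The lowest of these counts over all genes came without control 2, and the most genes called lower without control 3. Without control 1 and PRL-3 5 together, 4 members were higher and 1 lower. The filter at the 25th percentile kept 41 of the 44 members, without INPP4B, and that at the median level kept 35. The median filter left SGK1, a called member, with no value, so that 3 members were called higher there. BCL2L11 also lost its call after the median shift (adjusted p = 0.0593), with trend and robust variances (0.0843), above the median level (0.0507) and with all probe sets in 1 fit (0.0705), and GAB1 with trend and robust variances (0.0936). The motif shares, counted only before the start site, were 23.4%, 6.25%, 3.12% and 0% of members' windows for the hypoxia response core, the E-box, the C/EBP-ATF composite and the FOXO element, against 18.5%, 6.34%, 3.14% and 2.98% of all windows.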
